A study of Homo sapiens with 6 samples.

Results

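The cell's stress pathway around eIF2α was examined through 10 genes in BT-549 cells grown in adipocyte conditioned medium (ACM) or unconditioned medium (UCM). They are the 4 eIF2α kinases (EIF2AK1, EIF2AK2, EIF2AK3 and EIF2AK4), the 2 regulatory subunits of the eIF2α phosphatase (PPP1R15A and PPP1R15B), the 3 transcription factors ATF4, ATF3 and DDIT3, and the pseudokinase TRIB3. The genes were chosen by name, with earlier results of these data known. All 10 were found among the 63140 genes of the deposited tables. BT-549 is a triple negative breast cancer line, labelled wild type and epithelial. RNA was taken after 24 h from 3 cultures with ACM and 3 with UCM, and the labels name no transgene. ACM was an insulin, oleate and albumin medium kept on differentiating OP9 mouse cells. The sample labels give 50% ACM whereas the supplement gives undiluted ACM, and the formula of UCM is not stated in the sources used here. Base medium, serum and oleate therefore cannot be told apart from adipocyte secretions.

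Translation starts when eIF2 delivers the initiator tRNA to the ribosome, and phosphorylation of its α subunit slows this step. EIF2AK1 (HRI) answers to heme loss and mitochondrial stress, EIF2AK2 (PKR) to double-stranded RNA, EIF2AK3 (PERK) to unfolded protein in the endoplasmic reticulum (ER), and EIF2AK4 (GCN2) to amino acid shortage. While most translation falls, ATF4 mRNA is translated more, because short upstream reading frames hold its main frame back in unstressed cells. ATF4 then switches on genes for amino acid supply together with DDIT3 (CHOP), ATF3, TRIB3 and PPP1R15A (GADD34), the last of which brings protein phosphatase 1 to eIF2α and closes the loop. PPP1R15B (CReP) does the same constitutively. Kinase activity, eIF2α phosphorylation and ATF4 protein were not measured here, so the values are mRNA levels.

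Total expected counts were between 17135270 and 21053214 per library, and mitochondrial genes held 2.46% to 3.84% of the counts in ACM and 2.12% to 3.52% in UCM. Mesenchymal markers summed to between 5682 and 6439 CPM, which are counts scaled to the effective size of the library, with VIM detected in every library. Of the epithelial and receptor markers, EPCAM had 2 counts in ACM replicate 1 and 0 in the other libraries, ESR1 and PGR had no count in any library, and CDH1, KRT8 and KRT18 had between 2 and 34 counts per library. ERBB2 had at least 61.6 CPM in every library. Of 7 adipocyte markers, ADIPOQ, LEP and CIDEC were at 0 throughout, and the list summed to between 3.52 and 3.70 CPM in ACM and between 2.04 and 2.62 CPM in UCM. PLIN1, CIDEC and FABP4 of this list also respond to fatty acids in other cells, so the sum is not particular to adipocytes. The part of this difference in the results below was not tested. In such bulk RNA, fewer cells of a type and less RNA per cell cannot be told apart. All 10 genes passed the filter on low counts and were compared with edgeR's quasi-likelihood test and Benjamini-Hochberg adjustment over the 14451 genes tested.

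Short stretches of promoter are printed because they hold letters that factors of this pathway are known to bind. Each holds 30 bases, 5′ to 3′ along the gene, around letters found upstream of a RefSeq transcription start on GRCh38.p14. Capitals mark TGACG, the core of the cAMP response element (CRE) that ATF factors bind, TGATGNAA, the composite site of C/EBP and ATF factors, or CCAAT, each on either strand. The ATF4 stretches are chr22:39520387-39520416 and chr22:39520422-39520451 on the plus strand, in an annotated exon of the longer transcript ATF4-203. Those of PPP1R15A are chr19:48872257-48872286 and chr19:48872352-48872381 on the plus strand, in an exon of PPP1R15A-202. The DDIT3 stretch, chr12:57520585-57520614 on the minus strand, is in an intron of DDIT3-206. The ATF3 stretch, chr1:212565205-212565234 on the plus strand, lies in no annotated transcript, and that of PPP1R15B, chr1:204412026-204412055 on the minus strand, lies in an exon of ENSG00000288934 on the other strand.
ATF4: aactccttttctCGTCAcagctacgccctg
ATF4: aaacggttggggCGTCAaagggagggaggg
PPP1R15A: gaaactccgccgTGACGttgcaaaagctgg
PPP1R15A: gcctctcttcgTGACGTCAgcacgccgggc
DDIT3: CCAATgccggcgtgccactttctgATTGGt
ATF3: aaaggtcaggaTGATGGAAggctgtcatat
PPP1R15B: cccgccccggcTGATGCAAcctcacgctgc

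RefSeq windows from 250 bases before to 50 bases after a start were found for 9 of the 10 genes, EIF2AK1 having none, and gave 14 windows. ATF4 held the CRE core at 163 and 128 bases before its start. PPP1R15A held it at 152 bases and, as a full CRE (TGACGTCA), at 58 bases before its start. The core occurs in 24.6% of all 35116 windows and the full CRE in 1.85%. DDIT3 held CCAAT in opposite orientations at 100 and 76 bases before its start, letters found in 34.6% of all windows. The composite site occurs in 3.62% of all windows, and among the 10 genes it was found 227 bases before the start of PPP1R15B and 191 bases before the upstream start of ATF3. PPP1R15B also held the CRE core, and EIF2AK2, EIF2AK3, PPP1R15B and ATF3 also held CCAAT. TRIB3 and EIF2AK4 held none of these letters in their windows. Sequence outside the windows was not searched. A gene without a match, such as DDIT3 or TRIB3 for the composite site, is therefore not shown to lack one. The ER stress element, searched as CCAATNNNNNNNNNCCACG, which includes a CCAAT, had no exact match in any window of these genes. It was in 0.0769% of all windows. Inexact forms were not searched for. In the DDIT3 stretch printed above, the first CCAAT is followed, at the spacing of the element, by ccact in place of CCACG. The absence of an exact match therefore does not show that DDIT3 lacks such an element. A match is a description of letters and not a bound site.

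ATF4 and TRIB3 were the only members called, both higher in ACM, by 1.27-fold and 1.6-fold. DDIT3, ATF3 and PPP1R15A, which share ATF4 as an activator, did not pass the test, nor did any kinase or PPP1R15B. Called higher were thus 2 of 10 members, against 3.35% of all genes tested, and called lower were 0, against 2.21% (5.56% in either direction). The level was above that of every UCM library in all ACM libraries for 3 members, against 13.9% of all genes tested, and below it for 0, against 15.1%. At an unadjusted p-value at or below 0.05, 3 were higher (ATF4, TRIB3 and EIF2AK3), against 11.9% of all genes tested, and 0 lower, against 11.5%. DESeq2 called the same numbers, 2 and 0, at the adjusted p-value. The median log2 FC of the 10 genes was 0.08, and that of all genes tested was -0.01.

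**Figure D1:**
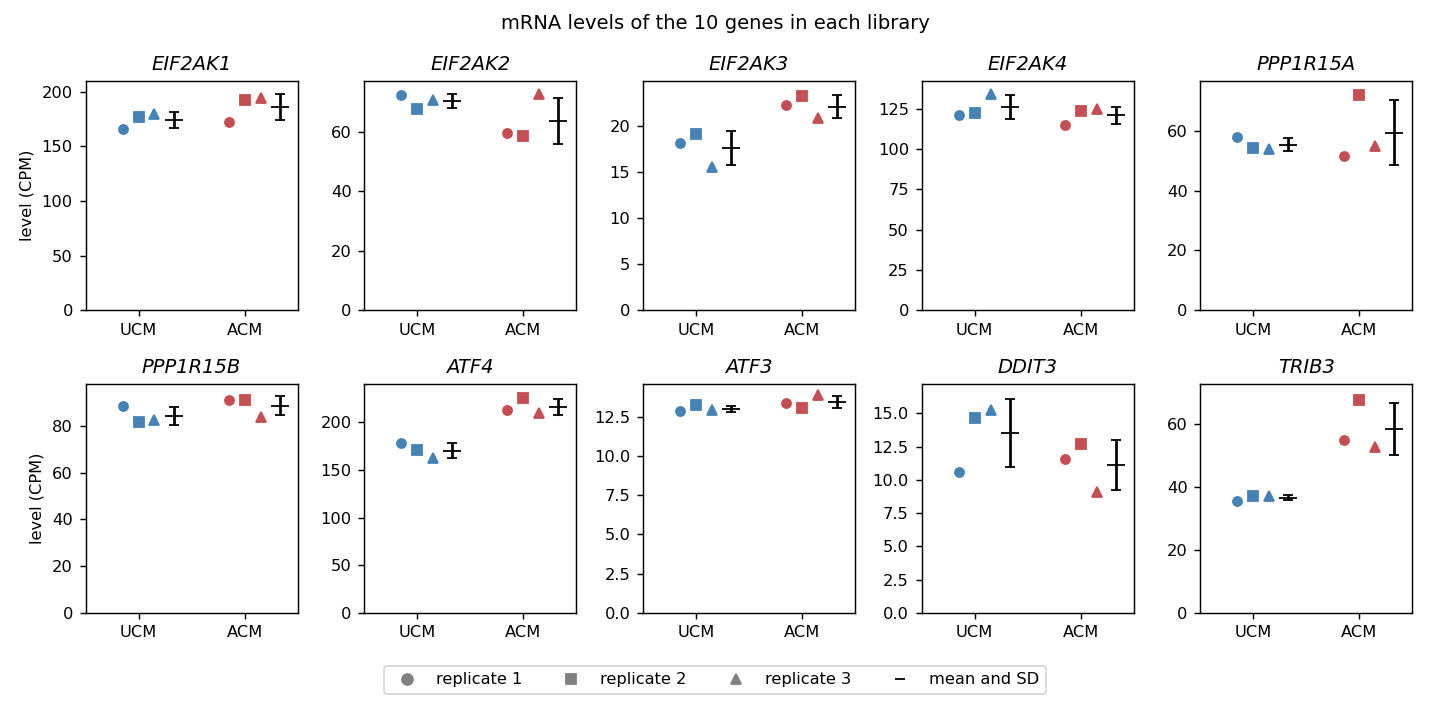
Level of each gene in CPM (linear axis from 0) in the 3 UCM and 3 ACM libraries, with symbols for replicate numbers and black marks for the mean and SD. The ACM points lie above all UCM points for ATF4, TRIB3 and EIF2AK3, and overlap them for the other genes.

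ATF4 (ENSG00000128272) lies on the plus strand of chromosome 22 from 39519695 to 39522683 (GRCh38, GENCODE 44) and has 3 exons in its canonical transcript. Its level was 213, 226 and 210.1 CPM in ACM replicates 1, 2 and 3 and 178, 171 and 162 CPM in UCM. All ACM libraries were thus above all UCM libraries, and the gap between the groups was wider than the spread within either. The log2 FC was 0.34 ± 0.07 (SE, edgeR adjusted p = 0.0177). The call was lost without ACM replicate 2 (edgeR adjusted p = 0.0694), without UCM replicate 2 (0.0940) or without UCM replicate 3 (0.0964), while omitting any single library left the log2 FC between 0.31 and 0.39. Per length, ATF4 was the most abundant of the 10 mRNAs, with 267 ± 4.78 TPM in ACM against 212 ± 13.0 in UCM (SD of 3 libraries each), TPM being a scale that also divides by gene length. Its processed pseudogenes ATF4P1 to ATF4P4 held at most 0.5 counts in any library.

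TRIB3 (ENSG00000101255) encodes a pseudokinase that binds ATF4 and DDIT3 and restrains their activity. It lies on the plus strand of chromosome 20 from 362835 to 397559 in GENCODE 44, which holds another version of the gene model than the files. Its level was 54.8, 67.7 and 52.7 CPM in ACM replicates 1, 2 and 3 and 35.5, 37.0 and 37.2 CPM in UCM. The groups did not overlap, the UCM libraries lay close together and ACM replicate 2 was the highest. The log2 FC was 0.67 ± 0.10 (SE, edgeR adjusted p = 0.0061). Omitting any single library left it between 0.55 and 0.74, with an edgeR adjusted p-value of at most 0.0309, so the call held. In TPM, TRIB3 averaged 42.7 ± 4.54 in ACM and 26.1 ± 0.331 in UCM (SD of 3 libraries each).

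DDIT3 (ENSG00000175197), the transcription factor CHOP that promotes death under lasting ER stress, did not pass the test. It lies on the minus strand of chromosome 12 from 57516588 to 57521737. Its level was 11.6, 12.7 and 9.08 CPM in ACM replicates 1, 2 and 3 and 10.6, 14.7 and 15.3 CPM in UCM. The groups overlapped, with UCM replicate 1 below 2 of the ACM libraries. The log2 FC was -0.28 ± 0.18 (SE, edgeR adjusted p = 0.383), with a 95% interval from -0.76 to 0.21. That interval excludes an increase of the size seen for TRIB3. DDIT3 shares 355 exon bases with MARS1 on the opposite strand, a gene with 219 CPM in ACM and 164 CPM in UCM and a log2 FC of 0.42. Whether counting used strand is not given in the sources used here. Without strand, reads from the overlap cannot be told apart.

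ATF3 (ENSG00000162772), an early stress factor of the same family that often represses its targets, lies on the plus strand of chromosome 1 from 212565334 to 212620777. Its level was 13.4, 13.1 and 13.9 CPM in ACM and 12.8, 13.2 and 12.9 CPM in UCM. The groups overlapped within a narrow range. The log2 FC was 0.05 ± 0.11 (SE, 95% interval -0.26 to 0.35, edgeR adjusted p = 0.847), and its sign turned to -0.02 when the effective length of the gene in each library was used as an offset.

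TRIB3, DDIT3 and ATF3 were next set against ATF4 within each library, as the log2 ratio of TPM. TRIB3 over ATF4 averaged -2.65 ± 0.13 in ACM and -3.02 ± 0.09 in UCM (SD of 3 libraries each), a difference of 0.37. DDIT3 over ATF4 averaged -3.42 ± 0.21 in ACM and -2.79 ± 0.36 in UCM, a difference of -0.63. Its values were -3.32, -3.27 and -3.66 in ACM replicates 1, 2 and 3 against -3.19, -2.65 and -2.52 for UCM, so that UCM replicate 1 lay close to the ACM libraries. ATF3 over ATF4 averaged -4.38 ± 0.12 in ACM and -4.00 ± 0.06 in UCM, a difference of -0.38. All 3 ratios separated the groups without overlap, TRIB3 above in ACM and both others below. By the CPM of single genes, 29.0% of all genes tested separated the groups. The share for ratios to ATF4 was not counted. ATF4 itself separated the groups, so the ratio of an unchanged gene to it can do so too. In an exact permutation test, two-sided, each had p = 0.1 (0.1 also after Benjamini-Hochberg adjustment over the 3), the smallest that 3 libraries against 3 allow. These ratios share ATF4, which had itself risen, and are not independent of one another.

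**Figure D2:**
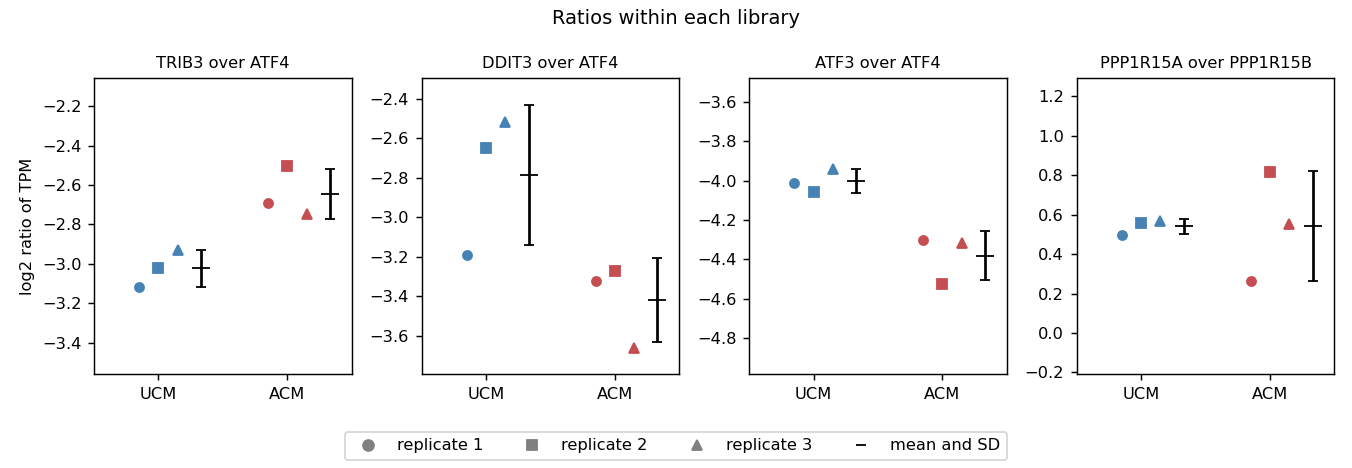
Log2 ratio of TPM within each library (axes of equal span, not starting at 0) for TRIB3, DDIT3 and ATF3 over ATF4 and for PPP1R15A over PPP1R15B, with mean and SD. ACM minus UCM was 0.37 for TRIB3 over ATF4 and -0.63 for DDIT3 over ATF4, while the subunit ratio overlapped between the media.

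The phosphatase subunits did not pass the test. PPP1R15A (ENSG00000087074) lies on the plus strand of chromosome 19 from 48872212 to 48876059, and its level was 51.5, 72.0 and 55.0 CPM in ACM replicates 1, 2 and 3 and 58.1, 54.2 and 54.1 CPM in UCM. ACM replicate 2 stood above every other library, while the other ACM libraries lay around the UCM values. The log2 FC was 0.10 ± 0.12 (SE, 95% interval -0.23 to 0.43, edgeR adjusted p = 0.673), and it was -0.06 without ACM replicate 2. PPP1R15B (ENSG00000158615) lies on the minus strand of chromosome 1 from 204396492 to 204411887. It had 91.2, 90.9 and 84.0 CPM in ACM and 88.5, 81.6 and 82.5 CPM in UCM, a log2 FC of 0.07 ± 0.07 (SE, edgeR adjusted p = 0.576). PPP1R15A over PPP1R15B, as the log2 ratio of TPM, averaged 0.54 ± 0.28 in ACM and 0.54 ± 0.04 in UCM (SD of 3 libraries each). The inducible subunit was thus the more abundant mRNA of the pair in every library, by the same mean ratio in both media (exact permutation test, two-sided, p = 1).

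Of the kinases, EIF2AK1 had the most abundant mRNA per length and EIF2AK3 the least, and none was called. EIF2AK1 (ENSG00000086232, chromosome 7, minus strand, 6022247 to 6059175) averaged 186 ± 12.2 CPM in ACM against 175 ± 7.43 in UCM, a log2 FC of 0.09 ± 0.07 (SE, edgeR adjusted p = 0.476). EIF2AK2 (ENSG00000055332, chromosome 2, minus strand, 37099210 to 37157522) averaged 63.6 ± 7.78 CPM in ACM against 70.2 ± 2.31 in UCM, a log2 FC of -0.14 ± 0.09 (SE, edgeR adjusted p = 0.384). EIF2AK4 (ENSG00000128829, chromosome 15, plus strand, 39934115 to 40035591) averaged 121 ± 5.30 CPM in ACM against 126 ± 7.39 in UCM, a log2 FC of -0.06 ± 0.07 (SE, edgeR adjusted p = 0.676). Its sign turned to 0.0015 without UCM replicate 3. The groups overlapped for these 3 kinases. EIF2AK1 shares 532 exon bases with AIMP2 on the opposite strand, which had between 1076 and 1539 counts per library, so the limit given for DDIT3 and MARS1 holds here too.

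EIF2AK3 (ENSG00000172071), which encodes the ER stress sensor PERK, lies on chromosome 2 from 88556741 to 88691518 on the minus strand. Its level was 22.2, 23.2 and 20.8 CPM in ACM replicates 1, 2 and 3 and 18.2, 19.1 and 15.6 CPM in UCM, without overlap. The log2 FC of 0.33 ± 0.11 (SE, edgeR adjusted p = 0.111) did not pass. In TPM, however, the ACM libraries had 7.45, 9.68 and 12.7 against 10.5, 10.3 and 10.8 for UCM, so that the groups overlapped and ACM had the lower mean. The effective length of the gene, a mean over its transcripts weighted by their abundance, was 4217, 3318 and 2362 bases in ACM and 2505, 2621 and 2059 bases in UCM. With these lengths as offsets the log2 FC was -0.07. The sign of the EIF2AK3 difference thus depended on the length that RSEM gave the gene in each library. For EIF2AK2, the effective length was 8374, 6966 and 7566 bases in ACM and 6359, 7472 and 6347 bases in UCM, and the log2 FC with offsets was -0.32 (edgeR adjusted p = 0.225).

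**Figure D3:**
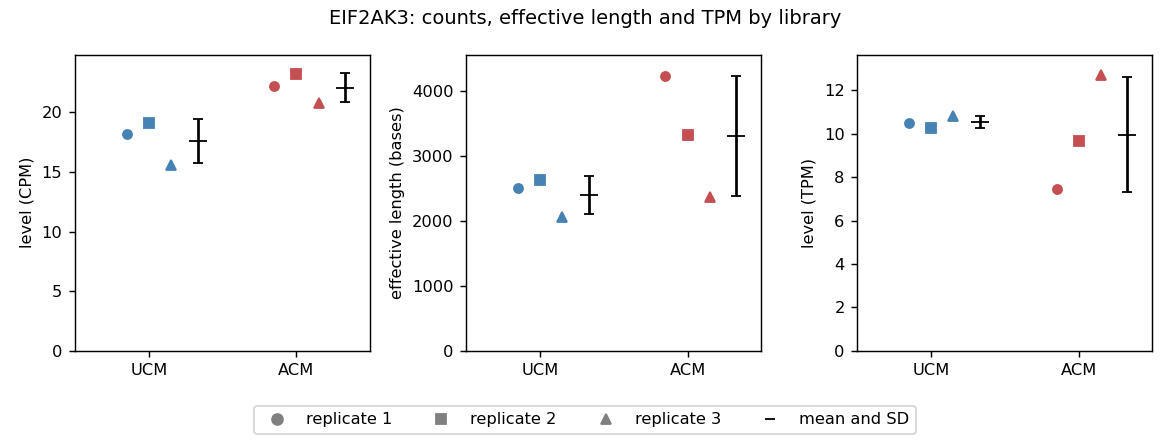
EIF2AK3 in each library as CPM, effective length in bases and TPM (linear axes from 0), with mean and SD. The ACM libraries are above UCM in CPM, spread from 2362 to 4217 bases in effective length, and overlap UCM in TPM.

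Each kinase was also expressed as a percent of the summed TPM of the 4 kinases. EIF2AK1 made up 70.1% ± 2.83 in ACM and 65.9% ± 3.03 in UCM (SD of 3 libraries each), and EIF2AK4 made up 18.4% ± 0.778 and 20.0% ± 1.63. EIF2AK2 made up 6.24% ± 0.844 in ACM and 8.30% ± 1.27 in UCM, and EIF2AK3 5.22% ± 1.26 and 5.79% ± 0.280. The groups overlapped for every kinase, with p = 0.2 for EIF2AK1, EIF2AK2 and EIF2AK4 and p = 0.6 for EIF2AK3 in the exact permutation test, two-sided (0.267 and 0.6 adjusted over the 4).

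In the order of mean TPM, ATF4 and EIF2AK1 came first and second in both media, each apart from the next gene in every library. TRIB3 had rank 7 in UCM and rank 3 in ACM. In UCM, the neighbours from PPP1R15A (38.0 TPM) through EIF2AK4 (36.4), DDIT3 (31.1) and PPP1R15B (26.1) to TRIB3 (26.1) each overlapped with the next. In ACM, TRIB3 (42.7 TPM), PPP1R15A (40.0) and EIF2AK4 (35.0) overlapped from neighbour to neighbour, as did PPP1R15B (27.3) with DDIT3 (25.1). EIF2AK2, ATF3 and EIF2AK3 had the lowest levels in both media, between 9.95 and 15.1 TPM on average.

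**Figure D4:**
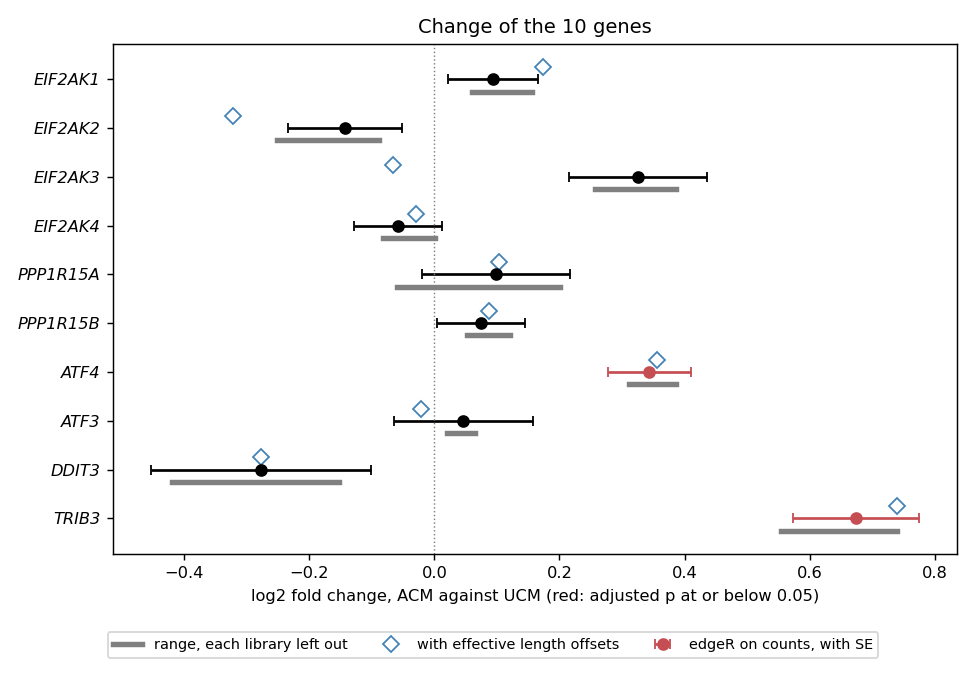
Log2 FC of ACM against UCM for the 10 genes with its standard error (points, red where the adjusted p-value was at or below 0.05), the range when single libraries were omitted (grey bars) and the value with effective lengths as offsets (open diamonds). TRIB3 and ATF4 lie at 0.67 and 0.34, and EIF2AK3 moves from 0.33 to -0.07 with the offsets.

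Genes of the pathway around these members were then counted in lists. The lists were typed by hand with earlier results of these data known. Their shares are therefore a description and not an independent test of enrichment. Of 47 ATF4 targets on 2 lists, 45 were tested, 21 were called higher (46.7%) and 0 lower, where 3.35% and 2.21% of all genes tested were called. At an unadjusted p-value, 35 were higher and 1 lower (SLC7A5), where 11.9% and 11.5% of all genes tested passed, and DESeq2 called 0 lower on either list. Their median log2 FC was 0.35. The count fell to 13 without UCM replicate 2 and 14 without UCM replicate 3. These lists leave out ATF4 targets that are counted elsewhere in this report. Among those, edgeR called TRIB3 higher and ATF5 lower, and did not call DDIT3, ATF3 or PPP1R15A. The shares thus depend on where such genes were listed.

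Among the 31 tested targets for amino acid supply, 14 were called higher (45.2%, against 3.35% of all genes tested), with a median log2 FC of 0.27. The count was 9 without ACM replicate 2, 7 without UCM replicate 2 and 8 without UCM replicate 3. The largest changes were those of SLC7A11, the cystine importer, ASNS, which makes asparagine, PHGDH, the first enzyme of serine synthesis, the mitochondrial folate enzyme ALDH1L2 and CBS, which makes cystathionine, with a log2 FC of 1.27, 1.21, 0.94, 0.90 and 0.68. ASNS was 87.3 ± 15.3 CPM in ACM against 37.6 ± 3.98 in UCM (SD of 3 libraries each). SLC7A5 and SLC3A2, the 2 chains of a leucine transporter, had -0.20 and -0.11 (edgeR adjusted p = 0.0981 and 0.307). Among the 14 tested targets for stress and signalling, 7 were called higher (50%, against the same 3.35%), with a median of 0.79. DDIT4, which restrains mTORC1, the peptide hormone gene ADM2, CHAC1, which degrades glutathione, SESN2, a leucine sensor, and the lipoprotein receptor VLDLR were called, with a log2 FC of 1.23, 1.19, 1.11, 0.96 and 0.79. GDF15, a secreted stress hormone named here after its values were seen, had 3047, 8607 and 2970 counts in ACM replicates 1, 2 and 3 against 1061, 543 and 483 for UCM. Its groups did not overlap and ACM replicate 2 was far above the rest, and its log2 FC of 2.87 ± 0.65 (SE, edgeR adjusted p = 0.0899) did not pass.

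Of the 12 ATF4 dimer partners and turnover factors, 4 were called higher and 1 lower, against 3.35% and 2.21% of all genes tested. Their median was 0.10. CEBPD, CEBPB, NUPR1 and JUN had a log2 FC of 1.23, 0.75, 0.72 and 0.39. The higher count was 1 without UCM replicate 2. ATF5, itself known as a target of ATF4 and translated in a like way, was lower, at 30.6 ± 2.14 CPM in ACM against 47.2 ± 4.81 in UCM (SD of 3 libraries each), a log2 FC of -0.62 ± 0.10 (SE, edgeR adjusted p = 0.0075). The call of ATF5 was lost with effective lengths as offsets and with limma-trend on TPM. Of the 7 DDIT3 targets and death genes, BBC3 and TNFRSF10B, which promote apoptosis, were called higher, against 3.35% of all genes tested. Their log2 FC was 1.32 and 0.48, and the other 5 genes of the list were not called. The count was 3 without UCM replicate 1 and 1 without any other single library.

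Upstream of ATF4, EIF2S1, which encodes the phosphorylated α subunit itself, was 114 ± 5.26 CPM in ACM against 142 ± 1.32 in UCM (SD of 3 libraries each). Its log2 FC was -0.31 ± 0.06 (SE, edgeR adjusted p = 0.0233). It was the only one called among the 11 tested subunits of eIF2 and eIF2B and reinitiation factors, whose median was -0.05. Of all genes tested, 2.21% were called lower. No gene of that list was called lower when ACM replicate 1 or 2 or UCM replicate 2 or 3 was omitted, with effective lengths as offsets or with limma-trend on TPM, and 2 were without UCM replicate 1. EIF2D was listed at 0 in every library, which does not show that it was not expressed. Of the 13 regulators and partners of the kinases and phosphatase, edgeR called 0 in either direction (4 were higher and 0 lower at an unadjusted p-value, where 11.9% and 11.5% of all genes tested passed), and their median was 0.01. That count was 1 higher with DESeq2 and without UCM replicate 1, and 2 higher when genes with at least 1 count in total were tested. OMA1 and DELE1, which relay mitochondrial stress to EIF2AK1, had 0.47 and 0.01, and GCN1, which EIF2AK4 needs, had 0.33. In the ATF6 and XBP1 arms of the ER stress response, 3 of 22 genes were called higher and 0 lower, against 3.35% and 2.21% of all genes tested (8 and 0 at an unadjusted p-value, against 11.9% and 11.5%), with a median of 0.14. These were HERPUD1 and SYVN1, which act in the disposal of ER proteins, and the factor XBP1, with a log2 FC of 0.85, 0.45 and 0.45, and the count was 1 without ACM replicate 2 or UCM replicate 3. HSPA5, the main ER chaperone, had 0.30 (edgeR adjusted p = 0.152).

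**Figure D5:**
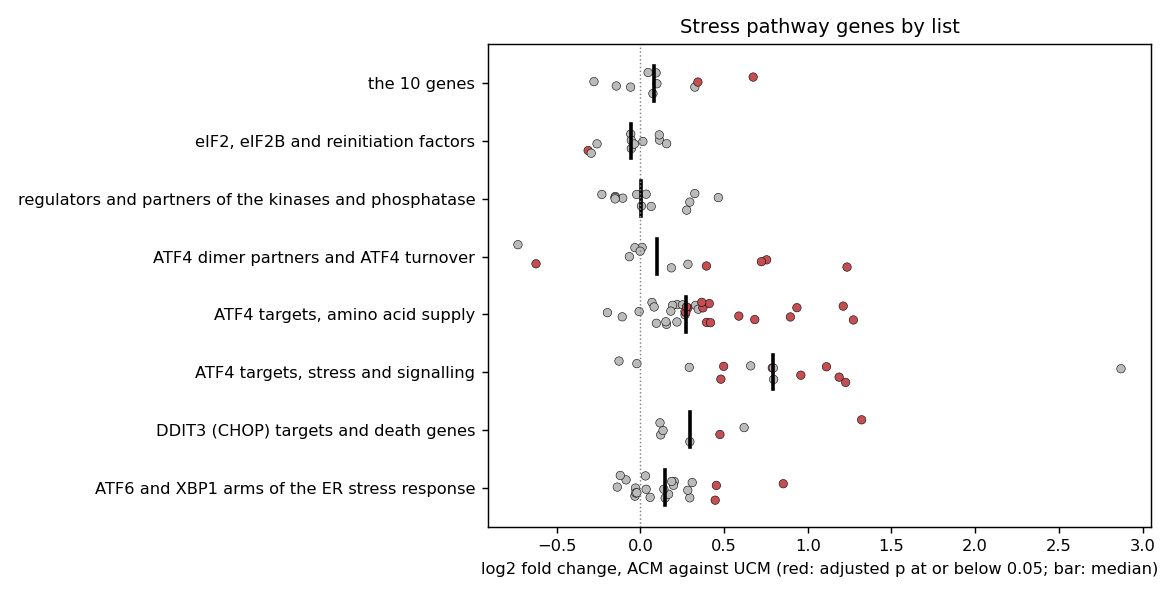
Log2 FC of ACM against UCM for every tested gene of each list (points, red where the adjusted p-value was at or below 0.05) with the list's median (bar). The 2 lists of ATF4 targets have medians of 0.27 and 0.79, above the 0.08 of the 10 genes. The grey point at 2.87 is GDF15.

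Over the 6 libraries, the profile of ATF4 was compared with those of other genes by the root mean square difference of their log2 CPM, each centred on its own mean. Among 108 other genes of the pathway lists, those of the tryptophan and cysteine tRNA synthetases WARS1 and CARS1 and of JUN were the most like it, at 0.0506, 0.0510 and 0.0666. Among the other 9 members, EIF2AK3 (0.0684) was the nearest and DDIT3 (0.389) the farthest. The place of EIF2AK3 rests on CPM, since its log2 FC was -0.07 with effective lengths as offsets. Among all 9671 genes of at least 10 CPM, the nearest were ZNF444, STMN3 and NORAD, at 0.0298, 0.0308 and 0.0352. The measure includes the step between the media, so likeness here is not independent of the comparison.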

How the data were processed

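Polyadenylated RNA of BT-549 cells was sequenced in 3 ACM and 3 UCM libraries, grouped and numbered by their titles. According to the paper, the authors used Trim Galore for trimming, STAR for alignment (GRCh38) and RSEM for quantification. Tool versions, annotation and strand setting are not given in the sources used here. The deposited expected counts per gene are not scaled for library size, while the TPM that the authors deposited divides by the effective length and has the same sum in each library. A series table holds the authors' own fold changes and p-values and was not used. Of 63140 gene identifiers, 62541 matched GENCODE 44 without the version and 61547 with it.

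After rounding, expected counts entered a robust quasi-likelihood test of the medium alone (edgeR 4.0.16 in R 4.3.3, filterByExpr, TMM), with p-values adjusted by Benjamini and Hochberg for 14451 genes. Genes whose adjusted p-value did not exceed 0.05 were called. The standard error is the log2 FC over the square root of the F statistic, and 95% intervals use it with the t distribution on the residual degrees of freedom of the 6 libraries. The test was tried on simulated data, and its common coefficient of biological variation was 0.115. P-values measure the spread between wells, which the labels do not place in separate experiments. Ratios were compared by exact permutation tests. Promoter sequences are from RefSeq (GRCh38.p14).

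Named were all members, up to 5 called genes of each list by size of change, and the 3 genes most like ATF4; genes not called, and those first in a list's role, were named after their values were seen. Lists were typed by hand. Members and lists were chosen with earlier results of these data known. Alternatives were DESeq2 1.42.0, RLE size factors, 2 other filters, limma-trend (limma 3.58.1) on log2 TPM with 1 or 0.1 added, effective length offsets, a replicate block, protein-coding genes only and each library left out.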

Additional observations from a re-analysis of the deposited data

How the results depend on the processing

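Over 15 alternatives, TRIB3 kept its call in each (log2 FC 0.55 to 0.74) and ATF4 in 12, so the count of members called higher lay between 1 and 2 with each library left out, and none was called lower under any alternative. The ATF4 targets called higher lay between 13 and 22 with each library left out. The sign of EIF2AK3 turned with effective length offsets (-0.067) and with limma-trend after adding 1 (-0.10) or 0.1 (-0.12) to TPM, and that of ATF3 under the same 3 (-0.021, -0.043 and -0.046). With each library left out, EIF2AK4 lay between -0.083 and 0.0015 (without UCM replicate 3) and PPP1R15A between -0.060 (without ACM replicate 2) and 0.20. The difference in the EIF2AK3 share was 1.09 percentage points with CPM in place of TPM, against -0.57. For EIF2AK3, its share and ATF3, dividing by the effective length or not is the step that differs. The ATF3 values were all smaller in size than its standard error of 0.11. For EIF2AK4 and PPP1R15A the cause was not tested.

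Same-numbered libraries deviated together only in part, with correlations of 0.32, 0.03 and 0.18 for replicates 1, 2 and 3, so the numbers were not taken to pair the samples. With the replicate number as a block, TRIB3 had 0.67 and ATF4 0.34 with an adjusted p-value of 8.77e-04 and 0.0054 from edgeR, that of EIF2AK3 was 0.0510, and no call among the 10 genes changed. The block gave 27 ATF4 targets called higher and 1 of those for amino acid supply called lower, 2 genes called lower among eIF2, eIF2B and reinitiation factors, 2 called higher among the regulators of the kinases and phosphatase, and 6 genes of the ATF6 and XBP1 arms called higher. Without replicate 1 of both groups, a comparison added after the data had been seen, 2 members were called higher. The spread between 3 wells per group limits what could be called, and that of DDIT3 gave a standard error of 0.18.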
